A study of Mus musculus with 8 samples.

Results

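The genes described here carry the gene symbols of mitochondrial ribosomal proteins. They were taken as every probe set annotated to a single gene symbol made of Mrps or Mrpl followed by a digit, with the brightest probe set standing for its gene. The rule found 76 genes among the 11189 genes tested, 29 with small subunit (Mrps) and 47 with large subunit (Mrpl) symbols, measured by 156 probe sets. Of these, 34 genes had 1 probe set and the others had up to 8. All 76 passed the filter on dim probe sets, which kept probe sets with a mean log2 value above the median of the array, a signal of 45.3.

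The arrays came from spleen cells of 8 male C57/BL6 mice, each hybridised to 1 Affymetrix Mouse 430 2.0 array. The 4 groups of 2 mice were wild type littermates at 2 months, HMGA1a transgenic mice at 2 months, wild type littermates at 12 months and HMGA1a transgenic mice at 12 months. HMGA1 is a small chromatin protein that bends DNA at stretches rich in A and T, and the transgenic mice form lymphoid tumours between 8 and 12 months, so the younger mice were sampled before tumours and the older ones with established tumours. The promoter that drives the transgene is not given in the sources used here, and the level of Hmga1 itself was not analysed here.

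Mitochondrial ribosomes translate the few messages of the mitochondrial genome, which encode core subunits of the respiratory chain and ATP synthase. All of their proteins are encoded in the nucleus, made in the cytosol and imported. The small subunit binds the message and decodes it, and the large subunit joins amino acids and releases the chain at the inner membrane. Some of the proteins have a counterpart in bacterial ribosomes and others are found only in mitochondria.

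Promoters of such genes are known for binding sites of NRF1, of ETS factors such as GABP, and of YY1. RefSeq promoter windows on GRCm38.p6, from 250 bases before to 50 after each start, were at hand for 67 of the 76 genes. The stretches below were chosen because they belong to genes with large differences between the groups or show the letters that recur among the windows. Each of the first 5 is the 150 bases before the start, read 5′ to 3′ on the strand of the gene, and capitals mark a match to an NRF1, ETS or YY1 motif. Mrps7 lies at chr11:115603990-115604139 (plus strand), Mrps22 at chr9:98601680-98601829 (minus strand), Mrpl18 at chr17:12916092-12916241 (minus strand), Mrpl22 at chr11:58171514-58171663 (plus strand) and Mrpl9 at chr3:94443186-94443335 (plus strand).
Mrps7: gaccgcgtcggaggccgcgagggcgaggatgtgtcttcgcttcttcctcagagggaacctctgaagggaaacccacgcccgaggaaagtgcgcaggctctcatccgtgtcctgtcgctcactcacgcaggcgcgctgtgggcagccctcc
Mrps22: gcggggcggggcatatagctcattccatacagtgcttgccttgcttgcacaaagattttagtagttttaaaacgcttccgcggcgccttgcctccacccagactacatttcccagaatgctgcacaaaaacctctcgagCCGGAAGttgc
Mrpl18: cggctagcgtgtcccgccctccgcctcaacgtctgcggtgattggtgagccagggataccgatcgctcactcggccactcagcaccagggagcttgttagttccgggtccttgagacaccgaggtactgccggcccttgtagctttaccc
Mrpl22: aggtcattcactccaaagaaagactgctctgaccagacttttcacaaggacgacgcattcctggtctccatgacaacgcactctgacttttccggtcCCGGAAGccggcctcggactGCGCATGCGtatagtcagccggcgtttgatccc
Mrpl9: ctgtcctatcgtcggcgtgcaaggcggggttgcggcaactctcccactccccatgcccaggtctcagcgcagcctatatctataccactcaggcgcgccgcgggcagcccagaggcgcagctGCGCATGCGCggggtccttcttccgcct
The Mrps22 stretch holds the ETS letters close to its end, and the Mrpl22 stretch holds an ETS and an NRF1 match. In Mrpl9 the NRF1 letters match on both strands and overlap, so the capitals run 1 base longer. The Mrps7 stretch holds none of the 3 motifs, nor does the rest of its window. The Mrpl18 stretch holds none either, but its window has an ETS match farther upstream than the bases printed.

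The motifs were searched on both strands as GCGCATGCG for NRF1, CCGGAAG for ETS factors and AAGATGGCG for YY1. The ETS letters stood in 24 of the 67 windows (35.8%), against 18.6% of the 9069 windows of genes tested and 9.12% of all 27025 windows. The NRF1 letters stood in 7 windows (10.4%, against 3.72% of genes tested and 1.81% of all), and the YY1 letters in 8 (11.9%, against 3.41% and 1.49%). At least 1 of the 3 was in 34 windows (50.7%), against 24.1% of the windows of genes tested. These shares are a description of letters in a window and not of binding.

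Other motifs were about as frequent as in the genes tested, or less so. The E-box CACGTG, the letters bound by MYC and related factors, was in 5 windows (7.46%, against 10.2% of genes tested), CCAAT was in 26 (38.8%, against 38.5%) and TATAAA in 4 (5.97%, against 7.23%). The median GC content was 58.3% in the windows of the mitochondrial ribosomal protein genes and 61.0% in those of all genes tested. Of the 28 ETS matches, 23 lay between 60 bases before and 50 after the start (82.1%, against 64.5% of the ETS matches in genes tested). Of the 11 NRF1 matches 5 lay there (45.5%, against 55.5%). Of the 8 YY1 matches, 6 lay after the start on the strand of the gene, where 54.2% of the YY1 matches in genes tested did. The next 5 stretches of 25 bases are printed to show the letters around these YY1 matches, with the match in capitals. The search took only exact matches, so the capitals are the same in each by construction. They lie at chr6:71823745-71823769 (minus strand), chr4:107066824-107066848 (minus strand), chr10:95501906-95501930 (minus strand), chr17:46111007-46111031 (plus strand) and chr13:99344792-99344816 (plus strand).
Mrpl35: caggctgcAAGATGGCGgcttccat
Mrpl37: cacgggcaAAGATGGCGgcgtccag
Mrpl42: attgaagcAAGATGGCGagcgcgcg
Mrps18a: tgcgttccAAGATGGCGgccctcag
Mrps27: tgcgctccAAGATGGCGgctcccat
The match began 24 bases into Mrpl35, 27 into Mrpl37, 28 into Mrpl42, 12 into Mrps18a and 15 into Mrps27.

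Many of the genes also start back to back with a neighbour on the other strand. A neighbour starting within 1000 bases upstream in the opposite direction was found for 25 of the 67 genes (37.3%), against 17.8% of the genes tested. In 1 case both are mitochondrial ribosomal protein genes. The starts of Mrpl46, of the large subunit, and Mrps11, of the small subunit, are 42 bases apart, and the stretch between them is printed on the plus strand of chr7:78783089-78783130.
Mrps11: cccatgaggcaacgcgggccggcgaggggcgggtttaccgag
Mrpl18 shares its upstream region with Tcp1, a subunit of the cytosolic chaperonin, 238 bases away, Mrpl43 with the mitochondrial DNA helicase gene Twnk, 116 bases away, and Mrps12 with the mitochondrial seryl-tRNA synthetase gene Sars2, 147 bases away.

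The authors deposited linear intensities scaled to the same trimmed mean of 150.001 on every array, and the array medians ran from 44.9 to 49.5. Differences are given on the scale of log2(signal + 16), which understates the change of dim probe sets. Levels of different genes are not compared, since probe sets differ in how brightly they bind. The small number of arrays limits how precise each value can be. The standard errors of the genes described here at 12 months ran from 0.15 to 0.40 in the fit without a term for the replicate number. In that fit a shift shared by arrays of the same replicate number counts as spread. The median SD of these genes between mice of a group was 0.19 on the log2 scale, against 0.25 over all genes tested. In spleen cells taken in bulk, fewer cells of a type and less RNA per cell cannot be told apart.

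At 12 months, 63 of the 76 genes had a higher mean in the transgenic mice than in wild type, with a median log2 difference of 0.15 and quartiles of 0.05 and 0.25. Over all genes tested the median was -0.03, and 45.2% were higher. No mitochondrial ribosomal protein gene passed an adjusted p of 0.05 in limma, and neither did any other gene (0% called). At an unadjusted p under 0.05 limma gave 2 of the 76 genes as higher and 0 as lower, against 290 higher and 575 lower among all genes. The smallest adjusted p among the 76 was 0.586. A fit blocked on the replicate number called 5 genes (0.0447%), none of them among the 76, whose smallest adjusted p was then 0.105. In that fit 11 of the 76 were higher and 0 lower at an unadjusted p under 0.05, against 812 higher and 1415 lower among all genes.

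The direction was shared by both replicates for most of the genes. Both transgenic arrays were above both wild type arrays for 25 of the 76 genes, where 14.3% of all genes tested were so placed, and below for 3, against 19.9%. Within replicate 1 the median difference was 0.19 and within replicate 2 it was 0.10. The difference was above 0 within both replicates for 50 genes, against 26.9% of all genes. The size rested on the wild type arrays at 12 months: without replicate 1 of that group the median was 0.08, and without replicate 2 it was 0.24.

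**Figure D1:**
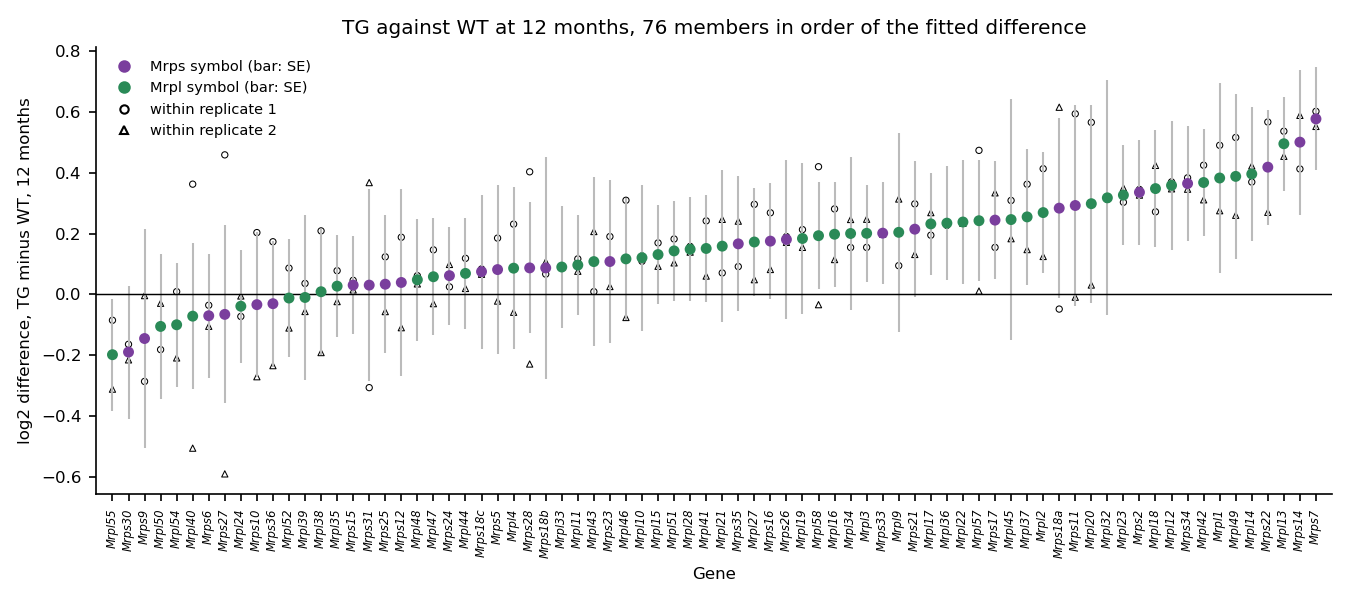
Each filled point is the log2 difference of transgenic against wild type mice at 12 months for 1 of the 76 genes. Points are coloured by symbol (Mrps or Mrpl), with the standard error as a bar. Open circles and triangles are the differences within replicate 1 and replicate 2. Most points lie above 0, from -0.20 for Mrpl55 to 0.58 for Mrps7, and the bars of most cross 0.

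Among genes with Mrps symbols 23 of 29 were higher, with a median of 0.09. Among those with Mrpl symbols 40 of 47 were higher, with a median of 0.17. Of the 46 measured proteins listed as having a bacterial counterpart, 42 were higher, with a median of 0.19. Of the 28 listed as having none, 21 were higher, with a median of 0.11. The difference between these classes was not tested.

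Mrps7, a protein of the small subunit head with a bacterial counterpart, had the largest difference. Its signals were 246 and 227 in the wild type and 274 and 274 in the transgenic mice at 2 months, and 206 and 193 against 320.3 and 291 at 12 months. The wild type mice at 12 months were the lowest of the 4 groups and the transgenic mice at 12 months the highest, with no overlap at either age. The means at 12 months were 199.5 ± 8.51 and 306 ± 20.5 (SD, n = 2), a log2 difference of 0.58 ± 0.17 (SE), with a limma p of 0.00925 before and 0.586 after adjustment. At 2 months the difference was 0.20 ± 0.17. Mrps7 has 1 probe set, so no second probe set reads it.

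Mrpl13 is a large subunit protein with a bacterial counterpart. Its signals were 715 and 723 in the wild type and 729 and 769 in the transgenic mice at 2 months, and 598 and 635 against 875 and 876 at 12 months. Both transgenic mice at 12 months stood above all 6 other mice, and the genotypes were close at 2 months. The means at 12 months were 616 ± 26.0 and 875 ± 0.623 (SD, n = 2), a log2 difference of 0.50 ± 0.15 (SE) with a limma p of 0.0126 before and 0.586 after adjustment. The other probe sets of the gene did not show this: of the 2 that passed the filter, the differences were 0.13 and -0.05.

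Mrps14, another small subunit protein with a bacterial counterpart, had signals of 704 and 909.6 in the wild type and 766 and 936 in the transgenic mice at 2 months, and 589.9 and 736 against 790.5 and 1115 at 12 months. The genotypes did not overlap at 12 months, at a difference of 0.50 ± 0.24 (SE), and its second probe set past the filter gave 0.29. Mrps22 belongs to the small subunit proteins found only in mitochondria. Its signals at 12 months were 163 and 165 in the wild type and 249 and 203 in the transgenic mice, a difference of 0.42 ± 0.19, and at 2 months the difference was 0.01.

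The other genes with the highest test statistics were Mrpl42, Mrpl23, Mrps2 and Mrps34. None of these overlapped between the genotypes at 12 months, but they were chosen by this same comparison, so this adds no support. Mrpl42, which has no bacterial counterpart, read 388 and 456 in the wild type and 526 and 569 in the transgenic mice, a difference of 0.37 ± 0.18. Mrpl23, a protein at the exit of the peptide tunnel, read 619.5 and 634 in the wild type and 768 and 812 in the transgenic mice, a difference of 0.33 ± 0.17. Mrps2 has a bacterial counterpart and sits in the body of the small subunit. It read 209 and 195 in the wild type and 269.9 and 249 in the transgenic mice, a difference of 0.34 ± 0.17. Mrps34, a mitochondria-specific protein needed for a stable small subunit, read 355 and 439 in the wild type and 468 and 562 in the transgenic mice, a difference of 0.36 ± 0.19.

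**Figure D2:**
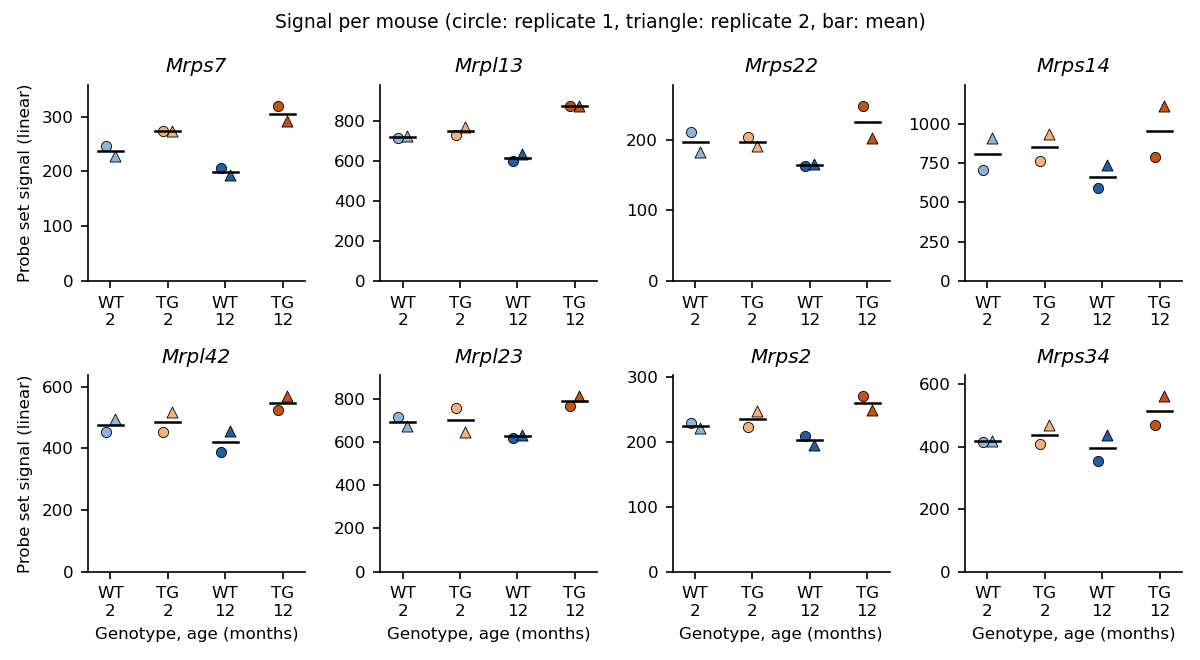
Linear probe set signals of the 8 genes with the highest test statistics for transgenic against wild type mice at 12 months, by genotype and age in months; a circle is the mouse of replicate 1, a triangle that of replicate 2 and a bar the mean of 2 mice. In each panel both transgenic mice at 12 months lie above both wild type mice of that age, and the 2-month groups lie closer together. Choosing the genes by the 12-month comparison favours such separation, which 14.3% of all genes tested showed.

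The genes at the other end differed by less. Mrpl55, a large subunit protein, read 174 and 172 in the wild type and 163 and 136 in the transgenic mice at 12 months, a difference of -0.20 ± 0.18. Mrps30, which carries a small subunit name although the protein sits in the large subunit, read 269.6 and 271 in the wild type and 239 and 231 in the transgenic mice, a difference of -0.19 ± 0.22, and Mrpl50 differed by -0.11. These 3 were the only ones of the 76 in which both transgenic arrays were below both wild type arrays. Mrpl54 differed by -0.10, Mrps9 by -0.15 and Mrps6 by -0.07, and their replicates overlapped. Mrpl40, at -0.07, differed by 0.36 and -0.51 within replicates 1 and 2, and the pentatricopeptide repeat protein gene Mrps27, at -0.07, by 0.46 and -0.59. For these 2 genes the replicates had opposite signs. The signs of Mrps9, Mrps6, Mrpl40 and Mrps27 turned when 1 array was left out.

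Probe sets that were not chosen to stand for a gene read the same RNA and are not further replicates. Among them 47 passed the filter, and 35 had a difference above 0 at 12 months, with a median of 0.20. Of the 30 genes with more than 1 probe set past the filter, 16 had the same sign in every probe set. The widest spread was in Mrpl48, with 0.05 for the probe set that stands for the gene and 0.72 for the other, followed by Mrps23, from -0.40 to 0.26, and Mrpl9, from 0.02 to 0.64.

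These genes read lowest on replicate 1 of the wild type mice at 12 months. Their median signal was 298 and 337 in wild type replicates 1 and 2 and 360 (359.6) and 372 in the transgenic mice at 12 months. At 2 months it was 344 and 363 in wild type and 345 and 379 in transgenic mice. Set against each gene's own mean over the 8 arrays, wild type replicate 1 at 12 months had a median of -0.17, with 63 of the 76 genes below their mean and 33 at their lowest of all arrays. Wild type replicate 2 at 12 months had a median of -0.02, with 45 genes below their mean. Wild type replicate 2 at 2 months had a median of 0.04, with 32 genes below, and replicate 1 at 2 months -0.04, with 47 below. The transgenic arrays at 12 months had medians of 0.04 and 0.07, and replicate 2 of the transgenic mice at 2 months had the highest, 0.11.

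**Figure D3:**
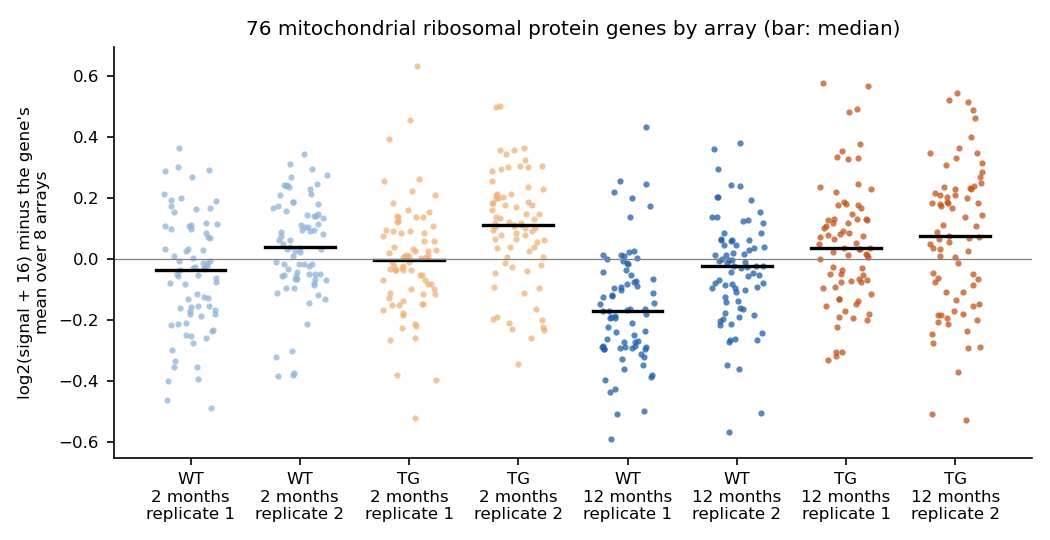
Each point is 1 of the 76 genes on 1 array, as log2(signal + 16) minus the mean of that gene over the 8 arrays, and the bar is the median of the array. Replicate 1 of the wild type mice at 12 months lies lowest, with a median of -0.17.

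Measures of RNA quality and cell type differed between the same groups. The ratio of 3′ to 5′ signal of actin was 1.48 and 1.31 in the wild type arrays at 12 months and between 1.10 and 1.24 on the other 6. That of Gapdh was 1.25 and 1.73 in the wild type and 0.843 and 1.21 in the transgenic arrays at 12 months. At 2 months the Gapdh ratio was 1.01 and 1.39 in the wild type and 1.07 and 1.48 in the transgenic arrays. The 1.25 of wild type replicate 1 at 12 months thus lay within the range of the younger mice. The part of these ratios in the difference was not tested. Among cell type markers at 12 months, 7 of 8 T cell markers were higher in the transgenic mice (median 0.69), 7 of 8 B cell markers lower (-0.38), 7 of 8 macrophage markers lower (-0.62) and 8 of 8 neutrophil markers higher (0.91).

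The summed levels of these markers varied between mice of a group. For T cells the sums were 3111 and 3903 in the wild type and 7604 and 4121 in the transgenic mice, and for B cells 17886 and 24698 against 12109 and 23364. For macrophages they were 24329.5 and 25243 against 15846 and 21403, and for neutrophils 10090.0 and 5752 against 9284 and 21012. None of these measured markers was at 0 on any array. Of plasma cell markers 1 of 6 was higher (-0.08) and of erythroid markers 3 of 5 (0.08). The part of cell makeup in the difference was not tested. Markers of exocrine pancreas summed to 10420.2 on the first wild type array at 2 months and to at most 635 on the others. Without that array the median difference at 2 months of the mitochondrial ribosomal protein genes was 0.0029.

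Other genes of growth and mitochondria gave the setting. All 23 measured genes of G2 and mitosis were higher in the transgenic mice at 12 months, with a median of 0.57, as were 23 of 26 genes of nucleolar ribosome production (0.32). All 46 cytosolic ribosomal protein genes were higher (0.24), and both transgenic arrays were above both wild type arrays for 7 of them, near the 14.3% of all genes. Of 78 subunits of the respiratory chain and ATP synthase, which include the proteins that join the products of mitochondrial translation, 64 were higher (0.19), and 29 had both transgenic arrays above both wild type arrays, against the same 14.3%. No gene of these lists passed the limma test.

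The remaining machinery of mitochondrial translation did not share a direction. Of 11 translation factors measured, 7 were higher, with a median of 0.11. Tufm, the elongation factor that brings tRNA to the ribosome, read 166 and 174 in the wild type and 194 and 242 in the transgenic mice at 12 months, a difference of 0.33 ± 0.18. Gfm1, the translocation factor, differed by 0.30 and Mtfmt, which formylates the initiator tRNA, by 0.29. Of 17 mitochondrial aminoacyl-tRNA synthetases, 9 were higher (0.01), with Wars2 at 0.74 ± 0.22, Pars2 at 0.34 ± 0.20 and Vars2 at -0.90 ± 0.40.

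Assembly factors of the mitochondrial ribosome were close to all genes tested. Of 21 measured, 7 were higher and 14 lower, with a median of -0.05, against -0.03 over all genes. Within replicate 1 their median was 0.03 and within replicate 2 it was -0.14. Nsun4, an RNA methyltransferase that acts during assembly, read 195 and 194 in the wild type and 148 and 147 in the transgenic mice at 12 months, a difference of -0.37 ± 0.20. Mettl17 and Ngrn, both needed for ribosome assembly, differed by -0.40 ± 0.23 and -0.32 ± 0.23. Of 8 genes of mitochondrial transcription and message stability 5 were higher (0.09), with Tfb2m at 0.45 ± 0.28, Lrpprc at 0.18 ± 0.20 and Slirp at 0.13 ± 0.21. Of 4 further ribosome proteins named outside the Mrp scheme 3 were higher (0.07), with Chchd1 at 0.37 ± 0.20, Gadd45gip1 at 0.12 ± 0.21 and Dap3 at 0.02 ± 0.23.

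Among 8 regulators of nuclear genes for mitochondria, 3 were higher and 5 lower (median -0.07). Nrf1, whose product binds the GCGCATGCG letters above, read 292 and 337 in the wild type and 226 and 237 in the transgenic mice at 12 months, a difference of -0.41 ± 0.18, so its signal was lower in both transgenic mice. Esrra, a nuclear receptor of mitochondrial genes, differed by -0.44 ± 0.21. Myc, a driver of ribosome production, read 602 and 273 in the wild type and 679.8 and 496 in the transgenic mice, a difference of 0.50 ± 0.37, and its genotypes overlapped.

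**Figure D4:**
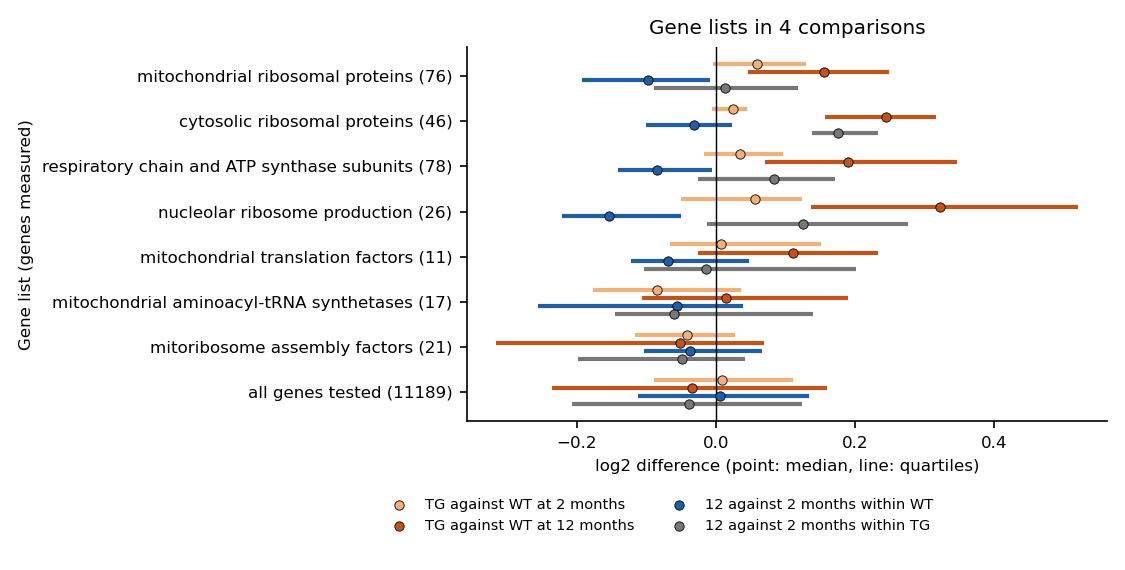
Medians (points) and quartiles (lines) of the log2 difference for 8 gene lists in 4 comparisons, with the number of genes measured in parentheses. The 76 mitochondrial ribosomal protein genes have a median of 0.15 for transgenic against wild type mice at 12 months and -0.10 for 12 against 2 months in wild type; both comparisons use the wild type arrays at 12 months.

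The 12-month difference was also set against the promoter features. The 24 genes with the ETS letters had a median of 0.18 and the 43 without them 0.12. The 7 genes with the NRF1 letters had a median of 0.20 against 0.15 in the other 60 genes, and the 8 with the YY1 letters 0.24 against 0.15 in the other 59. These medians are a description and were not tested. Of the back-to-back neighbours 19 were tested, and 13 were higher, with a median of 0.13, where 45.2% of all genes were higher. Mrpl46 and Mrps11, both higher, are counted there as neighbours of each other. Mrpl18 and Tcp1 differed by 0.35 and 0.40, and Mrps7 and its neighbour Gga3, whose start is 224 bases away, by 0.58 and -0.33.

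At 2 months, before tumours, the differences were smaller. Of the 76 genes 55 were higher in the transgenic mice, with a median of 0.06, where the median of all genes was 0.01 and 52.5% were higher. No gene passed the limma test (0% called). At an unadjusted p under 0.05 limma gave 1 of the 76 as higher and 1 as lower, against 33 and 11 of all genes. Both transgenic arrays were above both wild type arrays for 9 of the 76, against 10.1% of all genes, and below for 7, against 7.83%. The median was 0.13 without replicate 1 and -0.0067 without replicate 2 of the transgenic mice.

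Mrpl38, a large subunit protein without a bacterial counterpart, was the gene with the highest test statistic at 2 months. Its signals were 143 and 170.4 in the wild type and 207 and 257 in the transgenic mice at 2 months, and 153 and 175 against 179.7 and 151 at 12 months. The transgenic mice were above wild type at 2 months, by 0.52 ± 0.21 (limma p 0.0364, adjusted 1), and at 12 months the difference was 0.01. The second probe set of Mrpl38 past the filter went the other way at 2 months, with a difference of -0.27. The genes that followed were Mrps21 at 0.29 ± 0.22, Mrpl46 at 0.25 ± 0.20, Mrps30 at 0.25 ± 0.22 and Mrps7. Without replicate 1 of the wild type mice at 2 months, Mrps21 was at -0.0294 and Mrps30 at -0.0361.

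Mrpl48 lay at the other end. Its signals were 255 and 232 in the wild type and 141 and 195 in the transgenic mice at 2 months, and 213 and 213 against 223 and 219 at 12 months, so the transgenic mice at 2 months read lowest and did not overlap with any other group. The difference at 2 months was -0.51 ± 0.20 (limma p 0.0345, adjusted 1), and the second probe set of the gene gave -0.12. Mrpl33, a small protein with a bacterial counterpart, read 264 and 224 in the wild type and 175 and 195 in the transgenic mice at 2 months, a difference of -0.37 ± 0.20. Mrpl47 differed by -0.25, Mrpl40 by -0.19 and Mrps24 by -0.10. In these 5 genes both transgenic arrays were below both wild type arrays in the probe set that stands for the gene. The other probe set of Mrps24 past the filter went the other way, with a difference of 0.30. It read 282 and 356 in the wild type and 375 and 413 in the transgenic mice at 2 months.

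Whether the transgene effect differed between the ages was tested as an interaction. The effect at 12 months minus that at 2 months had a median of 0.11 over the 76 genes, of which 56 were above 0, and of -0.05 over all genes. The median was 0.19 within replicate 1 and 0.04 within replicate 2. It was 0.0365 without replicate 1 of the transgenic mice at 2 months, 0.18 without their replicate 2, 0.05 without replicate 1 of the wild type mice at 12 months and 0.21 without their replicate 2. No gene passed (0% called), and 0 of the 76 were at an unadjusted p under 0.05 in limma, where 58 of all genes were higher and 155 lower. The highest test statistics were in Mrpl13 (0.44 ± 0.22), Mrpl48 (0.56 ± 0.28), Mrpl33 (0.46 ± 0.29) and Mrps7 (0.38 ± 0.24). The lowest were in Mrpl38 (-0.51 ± 0.29), Mrps30 (-0.44 ± 0.31), Mrpl50 (-0.26 ± 0.34) and Mrpl55 (-0.25 ± 0.26), and Mrpl50 was at 0.0043 without replicate 1 of the wild type mice at 2 months. In the probe sets that stand for Mrpl48, Mrpl33 and Mrpl38, the values rested on the younger mice, which differed more than those at 12 months. The other Mrpl48 probe set past the filter did not show this, with -0.12 at 2 months and 0.72 at 12 months. That of Mrpl38 differed by -0.27 at both ages.

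With age the wild type mice went the other way from the transgene effect at 12 months, and both comparisons use the wild type arrays at 12 months. Of the 76 genes 18 were higher and 58 lower at 12 than at 2 months in wild type, with a median of -0.10, against 0.01 over all genes, of which 51.4% were higher. No gene passed the limma test (0% called), and 0 of the 76 were at an unadjusted p under 0.05, where 106 of all genes were higher and 65 lower. Both older arrays were below both younger ones for 18 of the 76, against 10.9% of all genes, and above for 3, against 12.7%. The median was -0.03 without replicate 1 of the wild type mice at 12 months and -0.18 without replicate 2.

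Mrpl58, a peptidyl-tRNA hydrolase built into the large subunit, read 458 and 485 at 2 months and 332 and 387 at 12 months in wild type, a difference of -0.38 ± 0.18. Mrpl33 read 264 and 224 at 2 months and 203 and 167 at 12 months, a difference of -0.37 ± 0.20. Mrpl11, of the stalk where translation factors dock, differed by -0.23 ± 0.16, Mrps24 by -0.27 ± 0.16 and Mrpl49 by -0.38 ± 0.27. The highest test statistics were in Mrpl50 (0.38 ± 0.24), Mrps10 (0.28 ± 0.24), Mrpl55 (0.19 ± 0.18), Mrps31 (0.17 ± 0.32) and Mrps6 (0.11 ± 0.20). The signs of Mrps31 and Mrps6 turned without replicate 1 of the wild type mice at 2 months, and that of Mrps6 also without replicate 2 of those at 12 months.

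In the transgenic mice the genes were spread evenly about 0 between the ages. Of the 76 genes 41 were higher at 12 months, with a median of 0.01, where the median of all genes was -0.04 and 43.7% were higher. In limma 1 gene of all tested passed (0.00894% called) and none of the 76, of which 0 were at an unadjusted p under 0.05. With the replicate block 21 genes passed, again none of the 76. Both older arrays were above both younger ones for 10 of the 76, against 10.3% of all genes, and below for 6, against 17.4%.

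Mrpl48 read 141 and 195 at 2 months and 223 and 219 at 12 months in the transgenic mice, a difference of 0.38 ± 0.20. Mrpl18 differed by 0.29 ± 0.19, Mrpl13 by 0.22 ± 0.15, Mrps34 by 0.22 ± 0.19 and Mrpl57 by 0.24 ± 0.20. Of the genes lower at 12 months, Mrpl38 read 207 and 257 at 2 months and 179.7 and 151 at 12 months, a difference of -0.45 ± 0.21. Mrps30 differed by -0.38 ± 0.22, Mrps27 by -0.36 ± 0.29, Mrpl58 by -0.21 ± 0.18 and Mrpl24 by -0.17 ± 0.19.

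Several of the genes differed more between the replicate numbers than between genotypes or ages. Replicate 2 was above replicate 1 in all 4 groups for 30 of the 76 genes, against 25.9% of all genes, and below in all 4 for 12, against 21.4%. In all, 47.2% of the genes tested kept 1 direction over the 4 groups. Mrpl45, which ties the large subunit to the inner membrane, had signals of 227 and 350.2 in the wild type and 219.6 and 366 in the transgenic mice at 2 months, and 203 and 383 against 256 and 437 at 12 months. Replicate 2 was higher in every group, by 0.72 on average. Mrpl32, a large subunit protein that is cut on import, had signals of 439 and 364 in the wild type and 754 and 398 in the transgenic mice at 2 months, and 576 and 333 against 719 and 420.1 at 12 months. Its replicate 2 was lower in every group, by 0.67 on average, since the mean of replicate 2 minus replicate 1 was -0.67.

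The next genes were Mrps18b (0.65), Mrpl9 (0.57) and Mrps12 (0.50) on the high side and Mrps9 (-0.63), Mrpl20 (-0.54), Mrps11 (-0.49) and Mrpl39 (-0.44) on the low side. The probe sets of Mrpl9 were split: the one that stands for the gene gave 0.57, and the others past the filter gave 0.62 and -0.20. Those of Mrps9 and Mrpl39 were split too. The other probe sets past the filter gave -0.11, 0.08 and 0.26 for Mrps9 and 0.19 for Mrpl39. Mrps15, a small subunit protein with a bacterial counterpart, stayed between 342 and 386 over the 8 mice in the probe set that stands for it. Its other probe set past the filter ran from 212 to 495, so the 2 probe sets disagree.

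**Figure D5:**
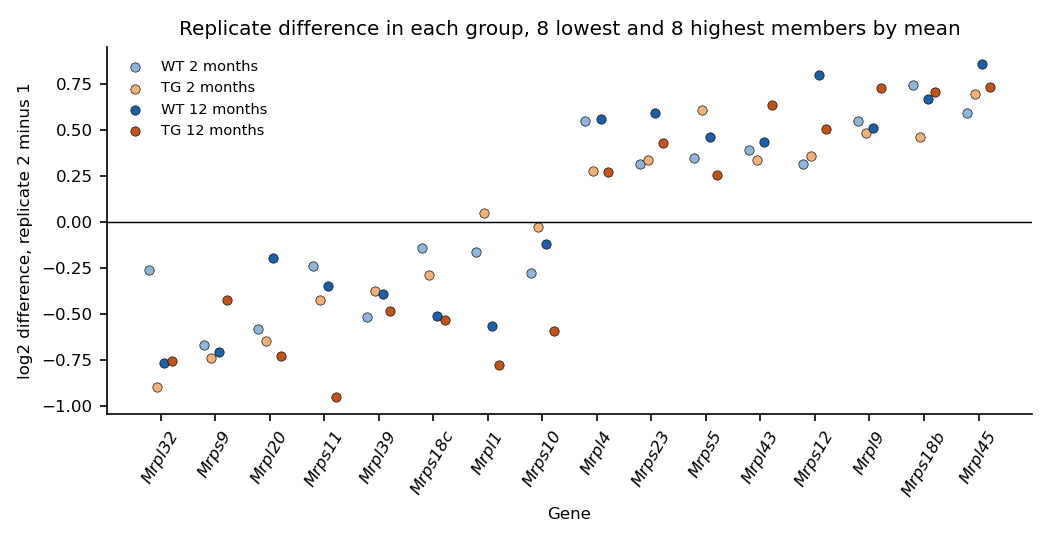
The log2 difference of replicate 2 minus replicate 1 in each of the 4 groups, for the 8 genes with the lowest and the 8 with the highest mean difference. For Mrpl45, Mrps18b, Mrpl9 and Mrps12 all 4 groups lie above 0, and for Mrpl32, Mrps9, Mrpl20, Mrps11 and Mrpl39 all 4 lie below.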

How the data were processed

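Spleen cell RNA of 8 mice was measured on 1 array each. Per the labels, the samples are biological replicates. Per the submitters' processing notes, GCOS 1.4 and MAS5 were used; the authors deposited linear intensities, of which 25.0% to 28.7% on an array were under 16. Normalization was kept as deposited. Of 45101 probe sets, 64 controls were left out, 34945 have 1 gene symbol, 932 several and 9160 none in the annotation; 34741 of those with 1 symbol were updated through the gene ID. A further 4 probe sets with several symbols include an Mrp gene and stood for none.

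Probe sets above the median mean log2(signal + 16) were kept, the brightest for each gene, and 11189 genes were fitted with limma 3.58.1 in R 4.3.3 (lmFit, and eBayes with a trend) as 4 group means with 4 residual degrees of freedom and no block. P-values were adjusted by Benjamini-Hochberg over all genes, two-sided. The script was tested on simulated data with changes larger than that of any mitochondrial ribosomal protein gene here. That test does not bear on differences of their size. The replicate numbers pair the samples by the data: same-numbered mice deviated together in all 6 pairs of groups (r from 0.464 to 0.654 over 11189 genes, which are not independent), so a fit with the replicate block was also run. Its source is not given in the labels.

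The members and lists were chosen with earlier results of these data known. The rule for naming genes took the 8 with the largest moderated t in each direction for transgenic against wild type at 12 months. It took the 5 in each direction at 2 months and for age in each genotype, and the 4 for the interaction. It also took the 5 brightest and dimmest, the 3 whose probe sets differ most, and the 3 with the largest absolute t of each other list. Mrpl1, Mrpl51, Mrpl52 and the genes of the mitosis, nucleolar, cytosolic ribosome and respiratory chain lists are not discussed singly. The genes of the replicate difference, Mrps15 and the back-to-back neighbours were chosen after their values were seen. Alternatives were other pseudocounts, filters, scalings, probe set rules, the block, an unmoderated model and leaving out each array. Promoter motifs were counted in the first listed RefSeq window of each gene.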

Additional observations from a re-analysis of the deposited data

How the results depend on the processing

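No alternative brought a mitochondrial ribosomal protein gene named here past an adjusted p of 0.05, and the lowest over 17 alternatives was 0.105, with the replicate block. Of all genes tested, the block gave 5 past the threshold at 12 months and 21 for age in the transgenic mice, where the main value was 1, and pseudocount 1 and the unmoderated model gave 0. The block changed no other call. The unmoderated model gave 1 for the interaction. Leaving out 1 array gave 0 to 7 genes at 12 months (7 without transgenic replicate 2 of that age), 0 to 2 at 2 months, 0 for the interaction, and 0 to 4 for age in each genotype.

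Without 1 array, the median of the 76 genes ran from 0.0802 to 0.243 at 12 months, -0.0067 to 0.13 at 2 months, 0.0365 to 0.214 for the interaction, -0.177 to -0.0324 for age in wild type and -0.0601 to 0.0678 in transgenic mice. The number higher at 12 months ran from 49 to 63, and the number with every transgenic array above every wild type array from 34 to 49, against 25 with all arrays. Fewer arrays make such separation easier. The share over all genes without 1 array is not given here, so the 34 to 49 cannot be set against a background. Of 54 named differences, 10 changed sign under some setting. Without 1 array, Mrps9 ran from -0.50 to 0.21, Mrps6 from -0.22 to 0.0825, Mrpl40 from -0.41 to 0.27 and Mrps27 from -0.42 to 0.29 at 12 months. Mrps21 ran from -0.0294 to 0.60 and Mrps30 from -0.0361 to 0.54 at 2 months, and Mrpl50 from -0.52 to 0.0043 for the interaction. For age in wild type, Mrps31 ran from -0.13 to 0.47 and Mrps6 from -0.0456 to 0.26. With the mean of all probe sets, Mrps24 was 0.10 at 2 months and Mrps6 -0.0557 for age in wild type. The cause was not tested. With 2 mice a group, the number of arrays limits every comparison.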
